A study of Mus musculus with 12 samples.

Results

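Mouse embryonic stem cells (ESCs) lacking both Dicer and Dnmt1 were compared with wild type cells by small RNA-seq. The libraries were chosen by their genotype label alone. They were all 4 libraries labelled Dicer/Dnmt1 KO and all 6 labelled wild type (WT), 10 of the 12 libraries in the series. The other 2 libraries carry a knockout of Dnmt1 alone. They shared the estimate of spread in the test and appear below only where their values bear on the double knockout.

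All libraries are labelled as E14 ESCs. The study's methods describe serum/LIF culture with or without feeder cells, and a C57BL/6 line with loxP-flanked Dnmt1 from which a conditional double mutant was made by CRISPR and induced with tamoxifen (4OHT) through Cre. A constitutive Dicer knockout was also made on that line, but the study describes its small RNA-seq for the conditional mutant. Apart from E14, the titles and genotype labels name no line, and they give no day after induction. The study's methods name no E14 ESCs, so how the label relates to the C57BL/6 line is not known. The study describes its small RNA control as ESCs with loxP-flanked Dicer and Dnmt1 that were not induced. The labels do not say which of the 6 WT libraries these are, so a difference of line or of tamoxifen treatment cannot be told apart from the genotype. No Dicer single knockout was analysed here, and the loss of Dicer and the loss of Dnmt1 therefore cannot be told apart from WT against double knockout alone. The number in a title was taken to mark a culture, which the labels do not state. On that reading the Dicer/Dnmt1 KO libraries came from 2 cultures and the WT libraries from 3, each with libraries A and B. The labels also do not say whether A and B are separate cultures or technical repeats. The series describes technical replicates, so p-values may measure a spread that is partly technical. WT 2A and 2B are titled E14 2A and E14 2B, with no genotype in the title, and are called the culture E14 2 below.

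Dicer is the ribonuclease that cuts hairpin precursors into mature miRNAs of about the length kept in these libraries. Most miRNA precursors are first released from longer transcripts by Drosha, and the mature strand then guides Argonaute proteins to mRNAs through its seed, bases 2 to 8. Mouse ESCs are known for the Mir290-295 cluster and for miRNAs of the Mir17-92 type, which share related seeds and favour rapid division. Dnmt1 copies DNA methylation at replication, and imprinted loci such as Dlk1-Dio3 depend on it.

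Several of the miRNAs that fell share a seed, and sequences are shown for 3 such seed groups. Mature sequences are from the RefSeq table (build GRCm38.p6), and each was found letter for letter within its feature in build NCBIM37. A RefSeq mature sequence was found for 112 of 132 tested miRNAs. Of all 132 tested miRNAs 75 fell, which is the background for the counts by seed. The seed is in capitals, and the sequences run 5′ to 3′. The first group has the seed AUUGCAC, which 5 tested miRNAs carry and all 5 of which fell.
miR-92a-3p (Mir92-1 and Mir92-2): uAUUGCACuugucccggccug
miR-92b-3p: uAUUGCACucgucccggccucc
miR-25-3p: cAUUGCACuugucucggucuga
miR-363-3p: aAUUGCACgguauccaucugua

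The second group has the seed AAGUGCU of the ESC clusters, carried by 5 tested miRNAs, all of which fell. The third has it shifted by one base, AAAGUGC, and is carried by 6, of which 5 fell. Both are shown because they cover the best known ESC miRNAs.
miR-294-3p: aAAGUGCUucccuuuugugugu
miR-295-3p: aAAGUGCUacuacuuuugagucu
miR-291a-3p: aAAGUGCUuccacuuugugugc
miR-302d-3p: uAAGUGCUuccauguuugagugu
miR-17-5p: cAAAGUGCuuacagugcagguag
miR-93-5p: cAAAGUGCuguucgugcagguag
miR-20b-5p: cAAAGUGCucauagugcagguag

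A shared seed did not always go with a shared call. Mir106a, with AAAGUGC, was not called, nor was Mir181a-2, whose seed ACAUUCA is shared with 2 members that fell. CT025619.1 rose and has CCCUGAG in common with 1 member that fell. The miRNAs below were not called or rose. The first 3 were among the most abundant miRNAs left in the double knockout or are known from fibroblasts, and the last 6 rose.
miR-21a-5p: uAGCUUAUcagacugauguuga
miR-22-3p: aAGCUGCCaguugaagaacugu
miR-10b-5p: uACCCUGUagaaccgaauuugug
let-7i-5p: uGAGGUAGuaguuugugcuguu
miR-100-5p (CT009696.2): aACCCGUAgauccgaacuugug
miR-125b-5p (CT025619.1): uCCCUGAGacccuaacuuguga
miR-127-3p: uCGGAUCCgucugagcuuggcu
miR-434-3p: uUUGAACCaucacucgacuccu
miR-411-5p: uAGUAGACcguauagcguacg

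Depth was 16142 to 245184 reads in WT and 8710 to 150701 in Dicer/Dnmt1 KO. The deleted transcripts could not check the genotype. Dicer1 had at most 3 reads per WT library and at most 1 per double knockout library, and Dnmt1 had 0 to 18 and 2 to 6. The culture E14 2 stood apart from the other WT cultures. Its libraries had the highest miRNA shares in WT, 65.7% in 2A and 45.3% in 2B against 29.5% to 33.9% in the others, and values without them are given where they matter. Fragments of ESC mRNAs were few. Of 14 ESC genes present in the table, 13 had reads in WT and 12 in Dicer/Dnmt1 KO, with summed levels of 62.0 to 257 RPM (reads scaled to a common library total, as in the deposited values) in WT and 126 to 612 RPM in Dicer/Dnmt1 KO. Pou5f1, the core pluripotency factor Oct4, had at most 7 reads per WT library and 0 in all 4 double knockout libraries, whereas Sox2, Nanog and Esrrb had reads in both groups. In bulk libraries such as these, fewer cells of a type and less RNA per cell cannot be told apart.

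The first question was how the loss of Dicer and Dnmt1 altered the makeup of the short RNAs. miRNAs made up 39.2% ± 14.2 of the counts in WT (SD, n = 6), against 8.60% ± 2.44 for the double knockout (SD, n = 4). In double knockout libraries 1A to 2B they were 12.1%, 6.31%, 7.84% and 8.19%, each below the lowest WT library. The difference was -30.6 percentage points (two-sided exact permutation p = 0.00952, adjusted over 10 classes 0.0190). That is the smallest p for 4 against 6 libraries, and over culture means no p under 0.2 is possible.

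The snoRNA, protein-coding, rRNA and other structured RNA classes had higher shares in every double knockout library than in every WT library. snoRNAs, which guide chemical modification of ribosomal RNA and are made without Dicer, went from 14.6% ± 6.06 to 28.8% ± 1.64. Features of other protein-coding genes went from 24.6% ± 5.37 to 42.1% ± 2.28, and rRNA from 0.489% ± 0.328 to 1.95% ± 0.548. Other structured RNAs rose from 0.318% ± 0.176 to 0.874% ± 0.150. Each had the same p of 0.00952 and adjusted p of 0.0190 (exact permutation, n = 6 and 4). Shares must sum to the whole, so a rise here does not show more molecules of a class.

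Reads in protein-coding genes are not all from mRNA, since a read in an intronic small RNA was also counted for its host. After taking away reads inside annotated small RNAs, protein-coding genes still held 12.1% ± 2.82 of counts in WT and 21.7% ± 4.60 in Dicer/Dnmt1 KO, with no overlap between groups (exact permutation p = 0.00952, n = 6 and 4). Long noncoding genes outside small RNAs went from 0.933% ± 0.284 to 2.19% ± 0.495 (same exact p). Their full share, with small RNAs included, was 16.2% ± 4.08 against 14.7% ± 0.808 and did not differ beyond the spread (exact permutation p = 0.543, n = 6 and 4).

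**Figure D1:**
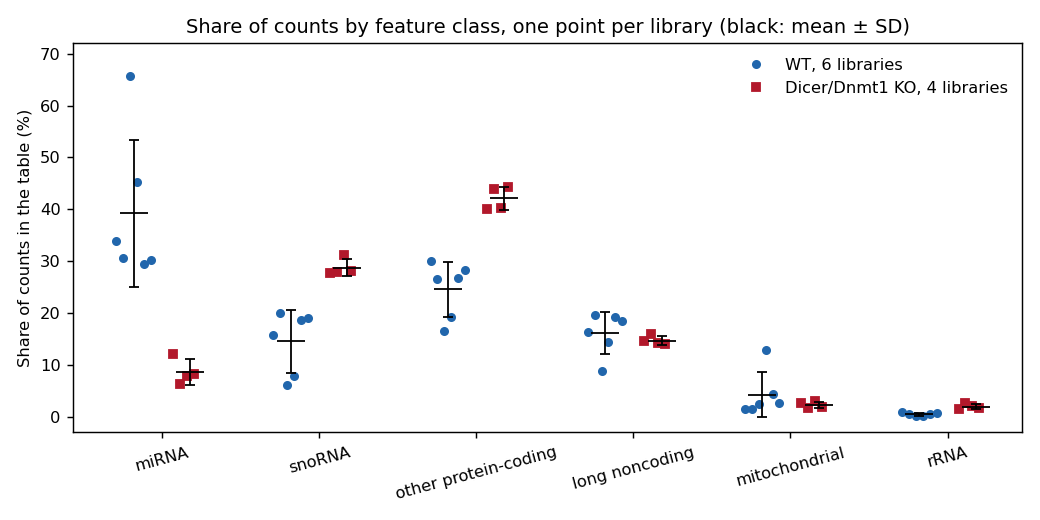
Share of each feature class in the counts of a library (y axis, percent), with a circle for each of 6 WT libraries, a square for each of 4 Dicer/Dnmt1 KO libraries, and the mean ± SD in black. The miRNA squares lie at 6.31% to 12.1%, below all circles, while the snoRNA, protein-coding and rRNA squares lie above all circles of their class.

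Across features, falls of miRNAs dominated. The test was limma on log2(RPM + 10) after scaling, and a feature was called when its Benjamini-Hochberg adjusted p was under 0.05. Of 683 features tested 138 were called, 20.2% of them. A total of 116 fell (17.0%) and 22 rose (3.22%). Among 132 tested miRNAs 75 fell, 10 rose and 47 were not called, and their median log2 fold change was -2.79 against -0.09 over all features. In 72 of the 75 that fell, no Dicer/Dnmt1 KO library reached the lowest WT library on the scaled level, whereas 21.7% of all tested features had groups that did not overlap.

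The falls were deep. Over pooled and scaled reads, the 75 miRNAs that fell were left with a median of 3.05% of their WT level. The value was under 5% for 47 of them, from 5% to 20% for 25, and above 20% for 3, with a maximum of 32.1%. A total of 7 had no read in any Dicer/Dnmt1 KO library.

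The count of rises depended on the culture E14 2. Without it 51 features rose and 127 fell, and 16 miRNAs rose and 79 fell. Without WT 2A alone 47 features rose, and without WT 2B alone 6 miRNAs rose. With A and B summed into 1 sample per culture 37 features rose and 112 fell. Scaling to library reads alone moved the median of all features to 0.61, and then 45 rose and 95 fell.

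**Figure D2:**
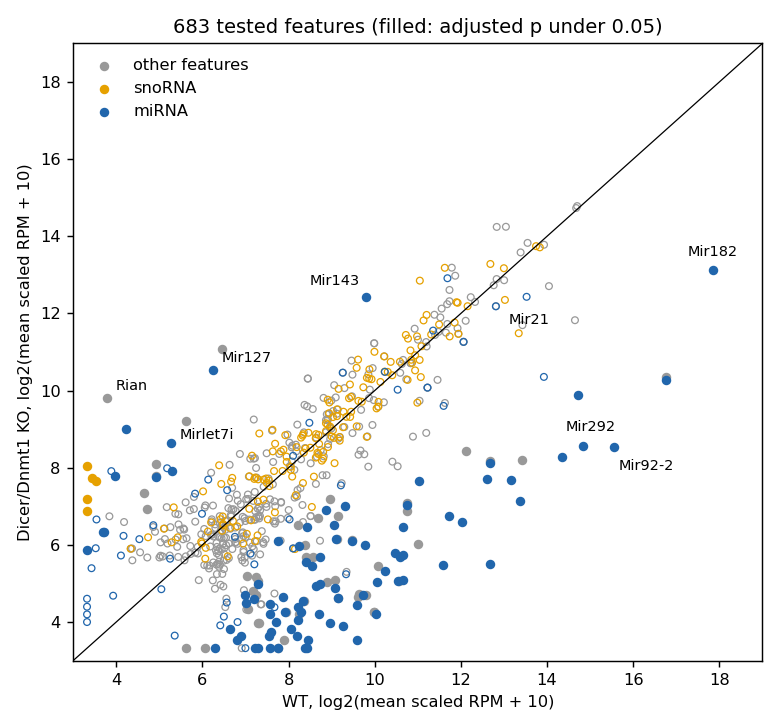
Mean level of each of the 683 tested features in WT (x axis) and Dicer/Dnmt1 KO (y axis), both as log2 of the scaled RPM + 10, coloured by class and filled where the adjusted p was under 0.05. Filled miRNA points lie far below the diagonal, most snoRNAs lie near it and unfilled, and Rian, Mir127, Mirlet7i and Mir143 lie above it.

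The ESC clusters lost nearly all of their reads. Mir290-295 on chromosome 7 and Mir302 on chromosome 3 have 12 annotated miRNAs, of which 10 were tested and all 10 fell, with a median log2 fold change of -5.39. Their summed level was 28683 to 93275 RPM in WT and 3797, 2985, 2806 and 1221 RPM in double knockout libraries 1A to 2B. The lowest WT library was WT 2A, and it lay above every double knockout library.

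Mir294 (NCBIM37 chr7:3220642-3220725), whose seed AAGUGCU is shown above, had 2459, 3889, 1301, 1797, 4282 and 2592 RPM in WT 1A to 3B. In double knockout libraries 1A to 2B it had 81.7, 0, 110 and 19.9 RPM. It fell by 6.45 on the log2 scale (SE 0.66, limma adjusted p = 7.71e-06), and every knockout library lay below every WT library.

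Mir292 was at 13629 to 34782 RPM in WT and at 1021, 574, 457 and 285 RPM in the double knockout (log2 fold change -6.34, SE 0.45, limma adjusted p = 1.23e-06). Mir293 was at 4584 to 13798 RPM and at 367, 344, 126 and 53.1 RPM (-6.32, SE 0.48). Mir295, at 5266 to 40717 RPM in WT, was left with 3.05% of its WT level (exact conditional binomial 95% interval 2.70% to 3.43%, counting error only), against 1.20% (0.981% to 1.46%) for its neighbour Mir292. The intervals do not overlap, but they compare pooled reads and leave out the spread between libraries.

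Mir291b varied within WT. It had 124 and 442 RPM in WT 2A and 2B and 1713 to 2799 RPM in the other 4 WT libraries, with 0 to 63.1 RPM in Dicer/Dnmt1 KO (-5.44, SE 0.73, limma adjusted p = 7.27e-05). Mir302d, from the Mir302 cluster within Larp7 on the opposite strand, had 248 RPM in WT 2A and 876 to 1627 RPM in the other 5, and 163, 0, 15.8 and 13.3 RPM in the double knockout. Mir290, the first member of its cluster, had the smallest change of the 10 at -2.74.

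The Mir17-92 cluster and its paralogues fell too. They comprise the polycistron on chromosome 14, Mir106b-25 in Mcm7, Mir106a-363 on the X chromosome and Mir92b. Of 14 tested 13 fell, and Mir106a did not pass at -2.83 (limma adjusted p = 0.0918). Mir106a nonetheless had 96 reads in WT and none in the double knockout, at least 13.8-fold lower against a floor of 3 reads over the 4 libraries. The median was -4.85, and the same with the 3 members without a knockout read set to such bounds. The summed level was 103053 to 174658 RPM in WT and 5676, 1148, 4336 and 1055 RPM in Dicer/Dnmt1 KO.

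Mir92-1 (chr14:115443649-115443728) alone had 66036, 112256, 62074, 99626, 112509 and 101118 RPM in WT 1A to 3B and 3675, 689, 2696 and 657 RPM in Dicer/Dnmt1 KO 1A to 2B. Its log2 fold change was -6.78 (SE 0.63, limma adjusted p = 4.90e-06). Mir92-2 (chrX:50095015-50095105) encodes the same mature sequence, so reads of miR-92a-3p cannot be assigned to either copy. It went from 25797 to 48895 RPM in WT to 1347, 0, 836 and 119 RPM, a log2 fold change of -8.20 (SE 1.24), or -6.47 with A and B summed. Over pooled scaled reads it kept 0.847% of its WT level.

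The other members with the seed AUUGCAC went the same way. Mir92b fell by 6.84 (SE 0.84), from 1737 to 9231 RPM in WT to 81.7, 0, 94.6 and 33.2 RPM. Mir25 fell by 5.55 (SE 0.60), from 5830 to 10699 RPM to 449, 115, 520 and 133 RPM. Mir363 had 228 WT reads and no read in the double knockout. Mir20b, its cluster neighbour with the seed AAAGUGC, had 221 WT reads and none. Against the same floor the pair were at least 32.8-fold and at least 31.8-fold lower.

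Other families with known roles in ESCs or epithelia fell in part or whole. Among all 132 tested miRNAs 75 fell, so a count such as 3 of 5 is near the share of any tested miRNA. All 4 tested members of the family of Mir200 and Mir141, which keeps cells epithelial by targeting the Zeb factors, fell, and Mir200b had 372 to 648 RPM in WT and reads in only Dicer/Dnmt1 KO 2B, 19.9 RPM (-5.49, SE 0.53). All 3 tested members of the Mir130 and Mir301 family fell, with Mir130a at 1735 to 3937 RPM in WT and 46.4 to 252 RPM in the double knockout. In the Mir30 family 3 of 5 fell, and Mir30e went from 1024 to 1804 RPM to 0 to 142 RPM. Of 4 tested in the list of Mir26, Mir29, Mir148, Mir103 and Mir107, 3 fell, and Mir148a was at 2867 to 7717 RPM against 113 to 459 RPM. Mir29a was not called at 1.25, but was 1.82 without E14 2 (limma adjusted p = 0.0443) and 1.81 with A and B summed (limma adjusted p = 0.0367). In the Mir181 family Mir181c and Mir181d fell, with log2 fold changes of -4.60 and -4.73, while Mir181a-2, with the same seed, was not called at 1.86 (limma adjusted p = 0.0937), but rose by 2.01 without E14 2 (limma adjusted p = 0.0153).

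Mir708, in an intron of Odz4, had 434 to 777 RPM in WT, 482 reads in all, and 1 read in the double knockout, in 2B. The pooled level left was 0.480% (exact conditional binomial 95% interval 0.0121% to 2.69%), and the log2 fold change -6.01 (SE 0.46, limma adjusted p = 1.23e-06). AC116595.1, a miRNA feature inside Ppargc1b on chromosome 18, had 434 to 2241 RPM in WT and 0, 0, 126 and 13.3 RPM (-6.08, SE 0.66).

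The Sfmbt2 cluster, a large rodent-specific block of repeated miRNAs, had 42 annotated features on its list, of which 13 had reads in WT and 1 in Dicer/Dnmt1 KO. Of 4 tested 3 fell. Mir467c and Mir669c had no knockout read and were at least 15.7-fold and at least 14.8-fold lower. Reads of these near-identical hairpins may be split between copies.

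The cluster of Mir183, Mir96 and Mir182 varied widely between libraries. Mir182 had 37572, 65802, 412836, 181534, 35323 and 57316 RPM in WT 1A, 1B, 2A, 2B, 3A and 3B, so the culture E14 2 was highest by far. In double knockout libraries 1A to 2B it had 43159, 10448, 4462 and 2449 RPM. Knockout 1A lay within the WT range in RPM, although on the scaled level the groups did not overlap. The log2 fold change was -4.19 (SE 1.03, limma adjusted p = 0.00807), and it was -2.85 without E14 2 (limma adjusted p = 0.00685) and -3.39 with A and B summed, no longer called (limma adjusted p = 0.0869). Its neighbour Mir183 had 491 to 5921 RPM in Dicer/Dnmt1 KO against 673 to 32586 RPM in WT, with only knockout 2B below the lowest WT library, and was not called (-1.92, limma adjusted p = 0.411). CT010508.1, a miRNA feature on chromosome 9, was also highest in E14 2, at 41383 and 12254 RPM against 2092 to 2382 RPM in the other WT libraries. It fell by 5.43 (SE 1.51, limma adjusted p = 0.0179) to 0 to 1266 RPM. Its value was -3.94 without E14 2 (limma adjusted p = 0.0269) and -3.59 with A and B summed, no longer called (limma adjusted p = 0.0588).

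Some miRNAs are made without one of the usual enzymes. Mir320 and Mir484, which bypass Drosha but still need Dicer, both fell. Mir320 had 62.0 RPM in WT 2A, 307 to 707 RPM in the other 5 WT libraries, and 0, 0, 94.6 and 26.5 RPM in Dicer/Dnmt1 KO (-4.11, SE 0.69, limma adjusted p = 0.000453). Mir484 went from 27.7 to 150 RPM in WT to 1 read in the double knockout (-3.11, SE 0.63, limma adjusted p = 0.00192). Mir451, which Argonaute 2 cuts in place of Dicer, had 0 to 1 read per library and was not tested.

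**Figure D3:**
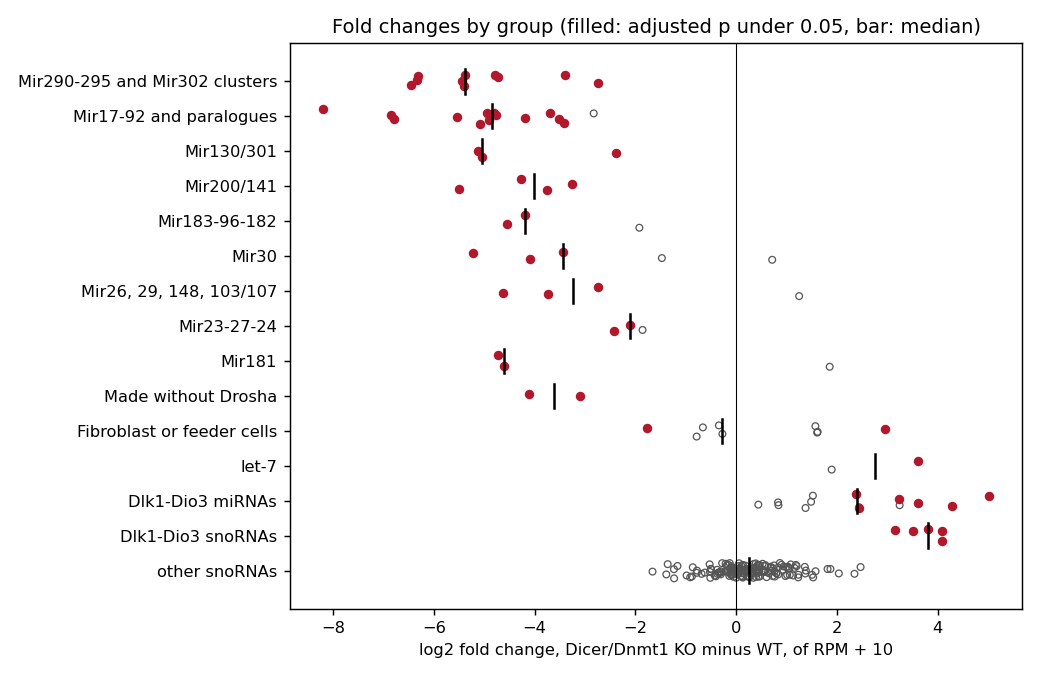
Log2 fold change of each tested member of 15 groups (x axis, Dicer/Dnmt1 KO minus WT on the RPM + 10 scale), filled where the adjusted p was under 0.05, with a bar at the group median. ESC, Mir17-92 and most other miRNA families lie far to the left, the fibroblast or feeder cell group lies around 0 with a median of -0.27, and the Dlk1-Dio3 groups lie to the right.

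Falls outside the miRNA class were mostly reads of the same miRNAs. Of 41 non-miRNA features that fell 33 contain annotated miRNAs, and in 30 at least 90% of their WT reads lay inside these. Among tested non-miRNA features, 41.8% of the 79 that contain a miRNA fell against 1.69% of the 472 that do not. The 5 largest falls were Mir17hg (-6.64), Ppargc1b (-6.09), Ttll10 and Gm13648 (both -5.90) and Larp7 (-5.88). Ttll10 and Gm13648 share one set of 672 WT reads, all inside Mir200a, Mir200b and Mir429. Mcm7, a replication helicase subunit and host of Mir106b-25, shows the same at higher depth. Of its 6516 WT reads 6501 were inside the 3 miRNAs.

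The 8 falling features without an annotated miRNA, named here because they are the exceptions, were Dhx9, Ror1, Ccdc30, BX470216.1, Hist1h3g, Snhg4, mt-Tf and mt-Co1. Ccdc30 and BX470216.1 lie at one place on chromosome 4 and had no knockout read. The mitochondrial cytochrome oxidase transcript mt-Co1 had 10128 RPM in WT 2B, at most 3201 RPM in the other WT libraries and 327 to 930 RPM in Dicer/Dnmt1 KO. Its groups overlapped, and it was not called with A and B summed (-3.02, limma adjusted p = 0.102).

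miRNAs known from fibroblasts and other stromal cells behaved unlike the ESC families. A list of these matched 16 annotated features, not all typed as miRNA. Of the 16 features 9 were tested, 1 rose, 1 fell, and 7 were not called, with a median of -0.27, or 0.53 with library reads alone. Of the 9 tested, 4 had a positive log2 fold change, and Mir221 and Mir222 were not called at 1.57 to 1.61. Without E14 2, and also with A and B summed, 2 rose and 1 fell. The summed level of the list was 10437 to 15912 RPM in WT and 24825, 23307, 42789 and 12880 RPM in double knockout libraries 1A to 2B. In RPM, knockout 2B lay within the WT range and the other 3 above it. The test used levels divided by scaling factors, 1.01 to 1.96 in Dicer/Dnmt1 KO and 0.419 to 1.11 in WT. Divided by these, the knockout sums all lay within the WT range, but the top of that range came from WT 2A and 2B (factors 0.419 and 0.725). Without E14 2, knockout 1A, 2A and 2B lay above the scaled WT range and 1B lay within it.

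Mir21, a broadly expressed miRNA that is abundant in fibroblasts, had 3221 to 7532 RPM in WT and 5921, 7922, 11099 and 3942 RPM in Dicer/Dnmt1 KO. It was not called at -0.66 (SE 0.39, limma adjusted p = 0.333), and the sign turned with library reads alone (0.19). Mir22 had 2540 to 5720 RPM against 3103, 3904, 6827 and 1593 RPM and was not called at -0.78, or 0.070 with library reads alone. Mir10b, from the Hoxd cluster, had 4275 RPM in WT 2A and 420 to 1084 RPM in the other WT libraries, against 2205, 574, 2396 and 1161 RPM. It was not called at -0.34, and the value was 0.73 without E14 2 and 0.51 with library reads alone. Mir31 was not called at -0.27, or 0.53 with library reads alone.

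Mir143, a miRNA of smooth muscle and fibroblasts, rose by 2.95 (SE 0.62, limma adjusted p = 0.00270). It had 559, 517, 1115, 592, 333 and 396 RPM in WT and 7186, 7463, 14883 and 4393 RPM in Dicer/Dnmt1 KO, so the groups lay well apart. The fold over pooled scaled reads was 10.8 (exact conditional binomial 95% interval 9.72 to 12.1). It was the third most abundant miRNA feature in the double knockout by mean level, at 8481 RPM ± 4487 (SD, n = 4), after Mir182, whose mean rests on 1A, and AC113316.1, whose mean rests on 2B. Mir34c, a p53 target, was the member that fell, at -1.77 (limma adjusted p = 0.0309), and it kept 32.1% of its WT level. Its call was lost under 10 of 22 other settings, among them library reads alone (-1.01, limma adjusted p = 0.283).

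Mirlet7i rose by 3.61 (SE 0.76, limma adjusted p = 0.00250). The let-7 family is kept low in ESCs by Lin28 and is typical of differentiated cells. Mirlet7i had 0 to 57.1 RPM in WT and 490, 689, 1009 and 285 RPM in Dicer/Dnmt1 KO, a pooled fold of 12.1 (exact conditional binomial 95% interval 7.74 to 19.5). Mirlet7d was not called at 1.90 (limma adjusted p = 0.0997), but was called at 1.96 with A and B summed (limma adjusted p = 0.0440). Over all 9 annotated let-7 features the summed level was 0 to 85.6 RPM in WT and 438 to 1655 RPM in the double knockout.

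A pair of miRNAs from a shared transcript on chromosome 9 also rose. CT025619.1, which holds the mature sequence of miR-125b-5p, had 0 to 35.7 RPM in WT and 449, 574, 315 and 66.4 RPM in Dicer/Dnmt1 KO (2.92, SE 0.77, limma adjusted p = 0.0136). CT009696.2, which holds that of miR-100-5p, had no WT read and 2, 1, 8 and 1 reads in the double knockout, at least 9.26-fold higher against a floor of 3 reads over the 6 WT libraries. The call of CT009696.2 was lost in 3 of the 13 other settings that could test it, and that of CT025619.1 in 2 of 22. At their WT level the pair could pass the filter of 111 RPM in 2 libraries only through knockout libraries, so their shared direction was largely set by the filter. Their hosts D230004N17Rik and 2610203C20Rik rose by 3.29 and 3.00, and all 17 WT reads of each lay inside the miRNAs.

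Markers of stromal cells were therefore examined among mRNA fragments. Of 15 fibroblast mRNAs 2 (Fn1 and Sparc) had reads in WT and 9 in Dicer/Dnmt1 KO. The summed level was 0 to 97.3 RPM in WT and 122, 115, 126 and 458 RPM in double knockout libraries 1A to 2B. These values rest on 3, 1, 8 and 69 reads, and a single read in 1B is already above the highest WT level, so 1A, 1B and 2A cannot be ranked against WT at this depth. The collagen genes Col1a1, Col1a2, Col3a1 and Col5a2 had no read in WT and 12 reads in the double knockout, 11 of them in 2B, while Thy1, Pdgfra, Lum, Dcn and Postn had no read in any library. Tpm1, an actin-binding tropomyosin, was not among these 15 mRNAs and was chosen after its values were seen, so it is no further marker. It rose by 2.24 (SE 0.61, limma adjusted p = 0.0161), from 0 to 34.7 RPM to 115 to 192 RPM, and lost its call under 2 other settings. The ratio of fibroblast marker miRNA reads to ESC cluster reads was 0.119 to 0.395 in WT and from 4.96 in 1A to 13.3 in 2A in Dicer/Dnmt1 KO, where the denominator had fallen. The study's methods allow feeder cells, and the part of other cells in these values was not tested.

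Few markers of other lineages could be tested. In the list of endoderm, neural, muscle and blood miRNAs 3 of 15 annotated members were tested, and all 3 fell. They were Mir192 of endoderm (-4.91) and Mir142 and Mir150 of blood (-4.79 and -4.39), and no neural or muscle member was tested. The summed level of the list was 942 to 2230 RPM in WT against 204, 0, 78.8 and 19.9 RPM. Since 75 of the 132 tested miRNAs fell, a fall here does not single out a lineage.

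**Figure D4:**
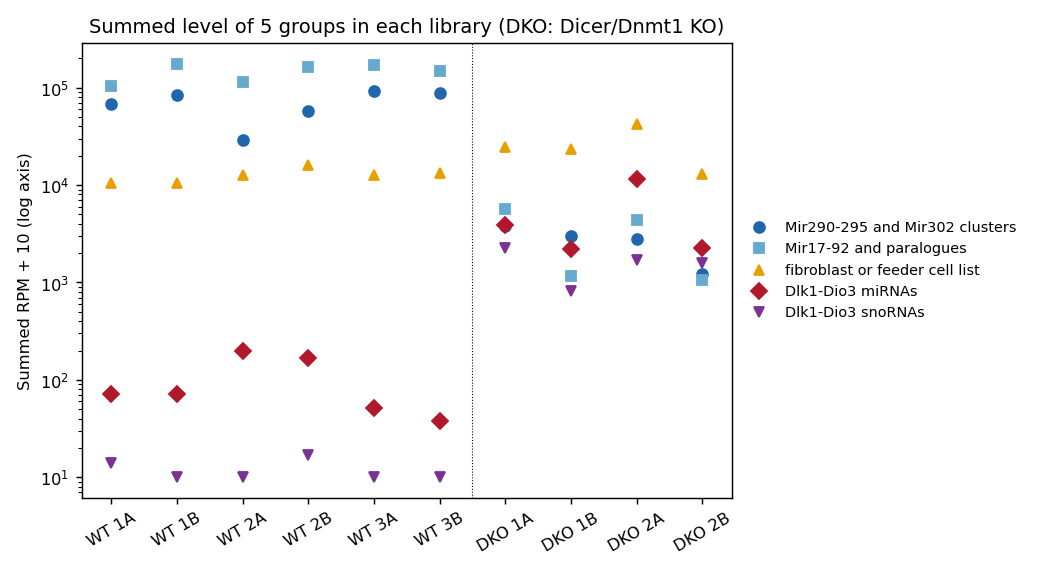
Summed level of 5 groups of small RNAs in each of the 10 libraries, as RPM + 10 on a log axis, with WT left and Dicer/Dnmt1 KO right of the dotted line. ESC and Mir17-92 miRNAs sit at 28683 RPM or more in WT and at 5676 RPM or less in the double knockout, the fibroblast or feeder cell list stays between 10437 and 42789 RPM, and both Dlk1-Dio3 groups are near the floor in WT and at 804 to 11478 RPM in the double knockout.

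What was still counted as miRNA in the double knockout therefore had another makeup. ESC clusters were 4.14% to 25.9% of miRNA counts in WT and 1.75% to 4.63% in Dicer/Dnmt1 KO, and Mir17-92 with its paralogues 16.3% to 47.4% and 1.51% to 4.97%. The fibroblast or feeder cell list, here only its features typed as miRNA, was 1.64% to 3.62% and 16.4% to 38.5%. Knockout 1A stood out through the Mir182 cluster, 43.0% of its miRNA counts against 4.21% to 17.3% in the other 3 knockout libraries.

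Features named after a sequence clone and not after a miRNA took 3.28% to 12.9% of miRNA counts in WT and 19.9%, 30.7%, 16.6% and 61.8% in double knockout libraries 1A to 2B. The large share in 2B came mainly from AC113316.1, at 24837 RPM there against 2641 to 4083 RPM in the other knockout libraries, and AL844840.2, at 11626 RPM. Both were also highest of the WT libraries in 1A, at 7855 and 21123 RPM. Neither was called (0.66 and -1.08, limma adjusted p = 0.816 and 0.426). AC122337.1 had 1112 to 3283 RPM in WT and 6819, 5396, 5282 and 1858 RPM in the double knockout, and was not called at 0.56, but rose by 1.35 without E14 2 (limma adjusted p = 0.00844). With features of a Mir symbol alone, miRNAs were 36.6% ± 12.9 of counts in WT (SD, n = 6), against 5.89% ± 2.85 for the double knockout (SD, n = 4), and 3.10% in 2B.

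**Figure D5:**
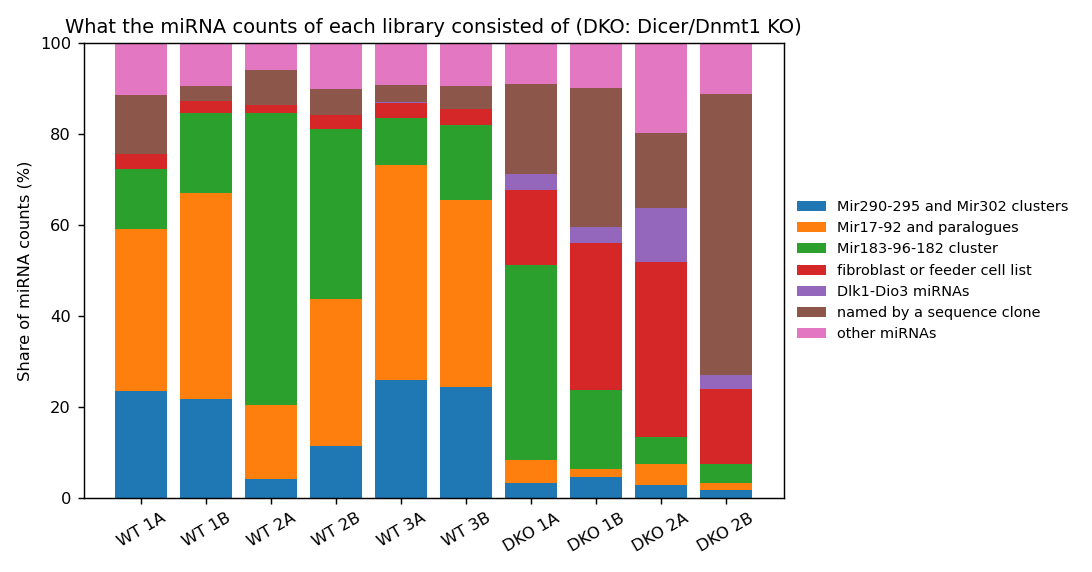
Makeup of the miRNA counts of each library (y axis, percent of miRNA counts, bars sum to 100) for 6 WT and 4 Dicer/Dnmt1 KO libraries. ESC and Mir17-92 miRNAs together fill 20.5% to 73.3% of the WT bars and 3.26% to 8.30% of the double knockout bars, which hold larger parts of the fibroblast or feeder cell list, of features named by a sequence clone and of Dlk1-Dio3 miRNAs.

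The Dlk1-Dio3 locus (chr12:110691033-111519307) is imprinted, and its noncoding RNAs are expressed from the maternal chromosome only. It gave 14 of the 22 rises, namely 6 miRNAs, 5 snoRNAs and the hosts Rian, Rtl1 and Mirg. The hosts share reads with the small RNAs inside them, so these rises are not all separate. Of its 57 annotated miRNAs 14 were tested, all 14 with a positive log2 fold change and a median of 2.41, and 8 rose without E14 2. At their low WT level, members could pass the filter (at least 111 RPM in 2 libraries) almost only through the knockout libraries. The shared sign and the median were therefore largely set by the filter. The summed miRNA level was 27.8 to 186 RPM in WT and 3920, 2181, 11478 and 2263 RPM in double knockout libraries 1A to 2B, so 2A was highest.

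Mir127 (chr12:110831042-110831138), antisense to Rtl1, had 0 to 124 RPM in WT and 2205, 804, 5471 and 723 RPM in Dicer/Dnmt1 KO. It rose by 5.02 (SE 1.00, limma adjusted p = 0.00178), and by 6.45 without E14 2, where WT 2A and 2B had held 124 and 57.1 RPM. Mir434 rose by 4.28 (SE 0.83) to 122, 344, 1876 and 571 RPM, and Mir411 by 3.62 (SE 0.74) to 81.7, 230, 773 and 186 RPM. WT levels were at most 20.7 and 21.4 RPM for these.

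The hosts of the locus differed in where their reads lay. Rtl1 (5.04, SE 0.88) had 793 of 794 knockout reads inside miRNAs on the opposite strand, and counting did not use strand. Mirg (4.14, SE 0.84) had all 193 inside miRNAs. Rian (5.98, SE 0.58, limma adjusted p = 5.55e-06), a snoRNA host, had 24 of its 324 knockout reads inside miRNAs, and rose from 4 WT reads to 1837, 689, 1356 and 1241 RPM. That is a pooled fold of 187 (exact conditional binomial 95% interval 72.5 to 692). The pair of SNORD113 copies and AF357355, described below, lie within Rian, and a read in them was counted for Rian too. In Dicer/Dnmt1 KO 2B the SNORD113 copies had 73 and 20 reads and AF357355 30, against 187 for Rian. Its rise is therefore not separate from theirs.

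The snoRNAs of the locus do not pass through Dicer. All 5 that were tested rose, with a median of 3.81, or 4.87 with the 3 members without a WT read set to their bounds. At their WT level, given below, they could pass the filter of 111 RPM in 2 libraries only through the knockout libraries. Their shared direction was thus set by the filter. AF357428 had 1 WT read and 449, 459, 268 and 99.5 RPM in Dicer/Dnmt1 KO (4.09, SE 0.55, limma adjusted p = 7.27e-05), and AF357355 had 1 WT read and 612, 115, 300 and 199 RPM (4.09, SE 0.63, limma adjusted p = 0.000209). A pair of SNORD113 copies had no WT read and were at least 84.8-fold and at least 29.3-fold higher, and AF357341 at least 44.0-fold higher. The first SNORD113 copy and AF357341 (limma adjusted p = 0.0211 and 0.0248) had no read in knockout 1B, so their groups overlapped. Each of them lost its call in 3 of 22 other settings. The 23 annotated snoRNAs of the locus summed to 0 to 7.13 RPM in WT and 2246, 804, 1671 and 1579 RPM in Dicer/Dnmt1 KO.

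The libraries with Dnmt1 deleted alone put these levels in context. There the Dlk1-Dio3 miRNAs summed to 53474 and 51567 RPM, above all 4 double knockout libraries, and the snoRNAs to 739 and 818 RPM, against 804 to 2246 RPM in the double knockout. The fibroblast or feeder cell list was at 41934 and 49950 RPM there, and the let-7 family at 473 and 585 RPM, so in RPM both were above WT with Dnmt1 deleted alone. Mir143 had 5319 and 6961 RPM and Mir21 16327 and 18614 RPM. The ESC clusters had 99648 and 55926 RPM and the Mir17-92 group 103859 and 109147 RPM with Dnmt1 deleted alone. With 2 against 4 libraries these differences were not tested.

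Outside Dlk1-Dio3 no snoRNA was called by limma. Of 162 tested, 0 passed the adjusted threshold and 5 had an unadjusted p under 0.05 (4 higher, 1 lower), with a median of 0.25. With voom weights 2 were called, and without E14 2 8 rose and 1 fell. Of 10 rRNA and 13 snRNA features 0 were called by limma or with voom weights, and 1 of each had an unadjusted p under 0.05, with medians of 0.82 and -0.46. Without E14 2, 1 snRNA feature rose and 1 fell, and with A and B summed 1 rose. The higher snoRNA and rRNA shares above thus stand beside per-feature changes that did not pass the test once scaled, and the scaling itself removes a shift shared by most features. The remaining rise, in Rsbn1l (2.88, SE 0.68, limma adjusted p = 0.00640), went from 0 to 36.7 RPM in WT to 122, 344, 284 and 186 RPM.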

How the data were processed

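Short RNAs were sequenced from 12 libraries. By the submitters' processing notes, reads were trimmed with Trim Galore 0.3.5. The authors kept reads of 20 to 24 nt, mapped them with Bowtie2 2.2.6 to NCBIM37 and counted them over annotated features in SeqMonk, without strand. The placing of multiply mapping reads is not given in the sources used here. The deposited values are log2 RPM made by the authors, with 0 reads written as 0.9 read. Undoing this gave whole reads for 100% of values, to within rounding. A further 89 value columns belong to no sample here and were not used.

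From these reads, features with at least 111 RPM in 2 libraries and 15 reads in all were kept (683). Reads were scaled by trimmed means of log ratios (30% of log ratios and 5% of abundances trimmed) and tested as log2(RPM + 10) with limma 3.58.1 (R 4.3.3), a mean-variance trend and a correlation of 0.302 between libraries A and B of a culture, over all 3 groups, with Benjamini-Hochberg adjustment at 0.05. Count models were not run, since the deposited unit is log2. The log2(RPM + 10) scale understates changes of features with few reads. Class shares were taken over all counts in the table, where a read in a nested feature counts more than once, and compared by two-sided exact permutation. Pooled ratios used scaled reads summed over each group, with exact conditional binomial 95% intervals. Intervals and floors of 3 reads cover counting error only, since these are reads without molecular identifiers. One read was worth 4.08 RPM in WT 1A, the deepest library, and 61.9 RPM or more in WT 2A and Dicer/Dnmt1 KO 1B.

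Named features were the 10 miRNAs with the largest falls, the 10 features with the largest rises, the 10 miRNAs with the highest mean RPM in each group, the 5 largest falls and rises outside miRNAs, and examples from the lists. Dhx9, Ror1, Mcm7 and the other exceptions and host genes, Tpm1, Rsbn1l, the chromosome 9 pair and the mRNA markers were chosen after their values were seen. Members and lists were chosen with earlier results of these data known. A list of RNA polymerase III and spliceosomal RNAs matched 0 features of the table, none of the ESC transcripts listed was abundant enough to be tested, and of the listed small RNA pathway genes only Dnmt1 was tested and was not called (0.03). In the list of Mir15/16 and Mir322 the 1 tested member fell (-2.56), and of Mir23-27-24 2 of 3 fell. The test was tried on simulated data. Alternatives covered scaling, filter, pseudocount, voom weights, the treatment of A and B, the groups fitted, and leaving out E14 2 or single libraries. A and B libraries of a culture differed by more than counting error and were kept apart.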

Additional observations from a re-analysis of the deposited data

Results flagged for a closer look

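Libraries that stood apart from the rest of their own group were looked for among the class shares and the features named by rule, and 19 values did so by Dixon's test. Chance alone gives about 1 in 20 groups, and many groups here were near 0 reads. No explanation was weighed for these values.

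In culture E14 2, WT 2A was far above the other WT libraries for CT010508.1 (41383 RPM), Mir183 (32586 RPM), AC122337.1 (3283 RPM) and Mir143 (1115 RPM), and WT 2B for Mir25 (10699 RPM) and for the mitochondrial share of counts (12.8%). WT 1A was far above the others for AL844840.2 (21123 RPM).

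In the double knockout, 1A was far above the other 3 libraries for Mir183 (5921 RPM) and Larp7 (327 RPM). Library 2A was far above for the snoRNA share (31.2%), Rtl1 (8025 RPM), and Ppargc1b and its nested miRNA AC116595.1 (126 RPM each, the same 8 reads). Library 2B was far above for AC113316.1 (24837 RPM), and for Mir200b (19.9 RPM) and Mir708 (6.64 RPM), which rest on 3 reads and 1 read.

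The remaining values were single low counts in WT for features of Dlk1-Dio3. AF357355 had 1 read in WT 1A (4.08 RPM), AF357428 1 read in WT 2B (7.13 RPM) and Mir411 3 reads in WT 2B (21.4 RPM).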

How the results depend on the processing

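Over 22 other settings the count of called features stayed within 1.5 times of 138, at the lowest 109 without WT 2B, and the count of miRNAs that fell was 65 to 88. The counts of rises moved more, and the cause was not tested. Against 22 features, 45 rose with library reads alone, 35 with A and B as separate samples, 37 with A and B summed and 51 without E14 2. Leaving out single libraries gave 16 to 47. Against 10 miRNAs, 16 rose with A and B as separate samples, 16 with A and B summed and 16 without E14 2, and leaving out single libraries gave 6 to 15. The share differences of miRNAs (-30.6 percentage points) and snoRNAs (14.2 percentage points) had p = 0.2 over culture means, the smallest possible exact permutation value there. Leaving out single libraries gave -32.5 to -25.3 and 12.5 to 15.3 percentage points.

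Deviations of same-numbered libraries from their group means had correlations of -0.23, 0.11, -0.17 and -0.28. Centring within small groups and uneven depth both affect such values, so they cannot decide whether the numbers pair the libraries. With the replicate block 113 features were called, 19 higher and 94 lower, and the share differences were -35.3 and 16.3 percentage points with p = 0.125, the smallest a sign permutation of 4 pairs allows.

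Of 56 named features called, 43 kept their call and direction under each setting that could test them, and 13 lost it under at least 1 setting, most often Mir34c (10 settings), Mir341 (6) and mt-Co1 (5). None turned in direction. Of 8 not called, 5 changed sign under some setting. With library reads alone Mir10b was 0.51, Mir31 0.53, Mir22 0.070 and Mir21 0.19. Mir10b was also 0.55 with A and B summed, 0.73 without E14 2, 0.20 without Dicer/Dnmt1 KO 1B, and ranged from -0.67 to 0.49 as single libraries were left out (0.49 without WT 2A). Mir31 was 0.073 with the replicate block and ranged from -0.61 to 0.36 as single libraries were left out, and AC113316.1 from -0.21 (without Dicer/Dnmt1 KO 2B) to 1.30. In Dicer/Dnmt1 KO 1B, with 8710 reads, a count of 0 allows up to 344 RPM, so low levels there cannot be ranked.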
